A study of Mus musculus with 17 samples.

Results

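Whether the response to BMP4, set against LDN, differed between FOXA2-positive and FOXA2-negative cells was asked of the 11 libraries whose titles name BMP or LDN, out of 17 libraries in the series. The quantity of interest is an interaction: the log2 fold change of BMP4 over LDN in FOXA2-positive cells, minus the same fold change in FOXA2-negative cells. A positive interaction means that BMP4 against LDN moved a gene further up, or less far down, in FOXA2-positive cells than in FOXA2-negative cells. The cells were R1 mouse embryonic stem cells with the genotype FOXA2-Venus, a fluorescent reporter of FOXA2. All 4 groups had 18 hours of retinoic acid (RA), then 6 hours with no treatment, then 8 hours of either BMP4 or an agent that the labels call LDN and do not spell out. The groups were BMP4 FOXA2-positive (3 libraries), LDN FOXA2-positive (2 libraries, numbered 2 and 3), BMP4 FOXA2-negative (3 libraries) and LDN FOXA2-negative (3 libraries). The labels give neither the gate that split the fractions nor how many clones of the reporter line were used. No library with neither agent at the same hour entered the comparison, so every response below is the distance between BMP4 and LDN and not the effect of either one alone. In pooled cells of this kind, fewer cells that express a gene and less RNA of that gene per cell cannot be told apart.

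BMP4 is a secreted ligand of the TGF-beta superfamily. It binds type I and type II receptor kinases, which phosphorylate SMAD1, SMAD5 and SMAD9, and these enter the nucleus with SMAD4 and switch on targets such as the Id genes, Msx genes and the pathway's own inhibitors. In the neural tube BMPs come from the roof plate and the overlying ectoderm and set dorsal fates, while FOXA2, a forkhead transcription factor, marks the floor plate at the opposite, ventral pole. Several small-molecule inhibitors of BMP type I receptors carry names that begin with LDN.

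The 11 libraries held 8435845 to 10796136 counts in genes (median 10248242) and detected 16139 to 17683 genes. Mitochondrially encoded genes took 3.50% to 4.81% of these counts. Replicates of a group correlated across genes at Spearman's rho of 0.912 to 0.948. The first principal component (27.96% of the variance) separated the fractions and the second (17.1%) the treatments, and BMP4 FOXA2-negative library 3 stood apart on the third (9.68%). Foxa2 itself followed the labels: it stood at 27.2, 22.4 and 27.4 CPM after BMP4, against 43.8 and 39.5 CPM after LDN in FOXA2-positive cells, and at 1.74, 0.107 and 0.469 CPM after BMP4, against 2.91, 2.62 and 0 CPM after LDN in FOXA2-negative cells. No library of one fraction overlapped the other, and the Foxa2 interaction was 0.58 ± 1.15 (log2 ± SE; 95% interval -1.87 to 3.02; edgeR adjusted p = 1). Shh, the floor plate's signalling ligand, was at 0 in every library except those of LDN FOXA2-positive cells, which held 11 counts together, so FOXA2-positive cells held little or none of this defining floor plate transcript.

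BMP targets led the response to BMP4 in both fractions, and few genes had a response that differed between the fractions by the test. After Benjamini-Hochberg adjustment over 16808 genes, edgeR's quasi-likelihood test called 5 interactions at an adjusted p under 0.05 (0.0297% of genes tested), all 5 positive, among them Msx2, Krt18, Tbx3 and Tfap2c. At an unadjusted edgeR p under 0.05 there were 1044 genes (6.21%), 638 positive (3.8%) and 406 negative (2.42%). Within FOXA2-positive cells 72 genes (0.428%) were called between BMP4 and LDN, 46 higher after BMP4 (0.274%) and 26 lower (0.155%), and 7.79% had an unadjusted p under 0.05. Under limma-voom the excess of higher calls was gone, with 59 called, 29 higher and 30 lower. Within FOXA2-negative cells 46 genes (0.274%) were called, 27 higher (0.161%) and 19 lower (0.113%), and 6.94% had an unadjusted p under 0.05. The median interaction over all genes tested was 0.03. Levels below are TMM-scaled CPM (counts relative to the library's scaled total), one value per library, and each log2 value is an edgeR estimate ± SE.

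**Figure D1:**
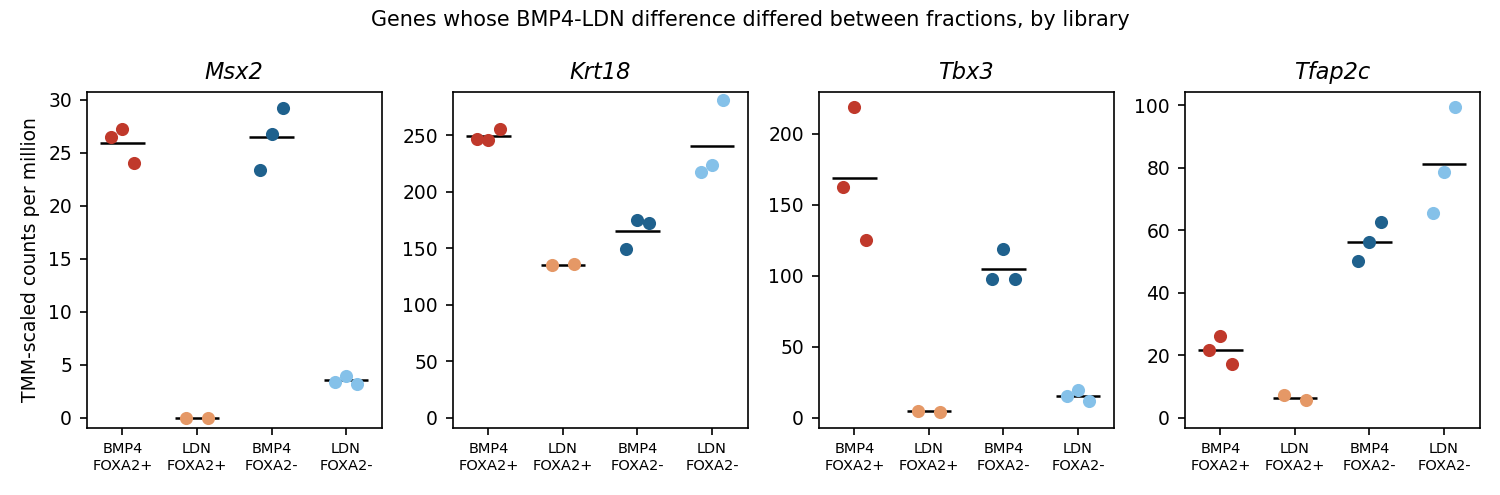
TMM-scaled CPM of 4 genes with a called interaction, 1 point per library and a line at each group mean, with BMP4 left of LDN and FOXA2-positive cells left of FOXA2-negative cells. Msx2 was at 0 in both LDN FOXA2-positive libraries, and Krt18 ran in opposite directions in the fractions.

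Msx2 (ENSMUSG00000021469, chr13:53466884-53473074, minus strand, mm10) encodes a homeobox repressor that BMP signalling induces in the dorsal neural tube and in surface ectoderm. It stood at 26.5, 27.2 and 24.0 CPM after BMP4, against 0 CPM after LDN in FOXA2-positive cells. In the other fraction it stood at 23.4, 26.8 and 29.2 CPM after BMP4, against 3.43, 3.98 and 3.18 CPM after LDN in FOXA2-negative cells. The BMP4 libraries of the fractions lay together and the LDN libraries did not: Msx2 was still read in all 3 LDN FOXA2-negative libraries and in neither LDN FOXA2-positive library. With the LDN FOXA2-positive group set at a floor of 3 counts in all, Msx2 was at least 164-fold higher after BMP4 in FOXA2-positive cells, against 7.55-fold in FOXA2-negative cells (log2 2.90 ± 0.37, edgeR adjusted p = 0.000305). At this floor the responses differed 21.8-fold (edgeR adjusted p of the interaction = 0.00437). That difference takes the FOXA2-negative fold at its point estimate and is no bound. As a difference in CPM the responses were close, at 25.9 CPM in FOXA2-positive cells and 22.9 CPM in FOXA2-negative cells, and the interaction on the log scale turned on the level under LDN.

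Krt18 (ENSMUSG00000023043, chr15:102028180-102032027, plus strand) encodes keratin 18, an intermediate filament protein of simple epithelia that pairs with keratin 8. It stood at 246, 246 and 255 CPM after BMP4, against 135 and 136 CPM after LDN in FOXA2-positive cells. The other fraction held 149.5, 175 and 172 CPM after BMP4, against 218, 224 and 281 CPM after LDN in FOXA2-negative cells. BMP4 and LDN libraries did not overlap in either fraction and their order was reversed: Krt18 rose by 0.88 ± 0.15 (log2, adjusted p = 0.00486) in FOXA2-positive cells, and its log2 fold change in FOXA2-negative cells was -0.54 ± 0.13, which did not pass (adjusted p = 0.124). The interaction was 1.42 ± 0.20 (95% interval 1.00 to 1.84, edgeR adjusted p = 0.00671). In CPM the BMP4 minus LDN difference was 114 in FOXA2-positive cells and -75.3 in FOXA2-negative cells. Of the 5 called genes, Krt18 was the one with the smallest interaction, and limma-voom, which models the spread on log values, called it alone (adjusted p = 0.0281).

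Promoter sequences were taken from RefSeq (GRCm38.p6, the assembly of mm10), which matched 7 of 11 genes looked up. The stretch shown for Krt18 is chr15:102027966-102028179, plus strand, the 214 bases of the 250 before the start site that precede the first annotated exon. It is printed since Krt18 carried the interaction that was called under all 20 alternatives tried. Capitals mark GGCGCC, the core of a GC-rich element bound by SMAD1 and SMAD5, 86 bases before the start.
Krt18: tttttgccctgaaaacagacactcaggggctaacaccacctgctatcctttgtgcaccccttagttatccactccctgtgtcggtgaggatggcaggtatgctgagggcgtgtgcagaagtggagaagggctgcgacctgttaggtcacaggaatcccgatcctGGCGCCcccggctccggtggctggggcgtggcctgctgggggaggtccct
GGCGCC, GTCTAGAC (a SMAD palindrome) and TGTTTAC (a forkhead motif) were searched on both strands in the 250 bases before the start. They were found in 9.59%, 0.167% and 3.17% of 32851 promoters. A match describes these letters and is not evidence of a bound site, and no match of the other motifs was found in this window.

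Tbx3 (ENSMUSG00000018604, chr5:119670669-119684724, plus strand) encodes a T-box repressor that BMPs induce in several embryonic tissues and that is also expressed in naive pluripotent cells. It stood at 162, 219 and 125 CPM after BMP4, against 4.97 and 4.42 CPM after LDN in FOXA2-positive cells. The corresponding levels in the other fraction were 97.8, 119 and 98.0 CPM after BMP4, against 15.7, 19.7 and 11.8 CPM after LDN in FOXA2-negative cells. BMP4 and LDN libraries were far apart in both fractions, with the lowest values of all in LDN FOXA2-positive cells. Tbx3 rose by 5.16 ± 0.31 (log2, adjusted p = 3.99e-09) in FOXA2-positive cells and by 2.74 ± 0.23 (adjusted p = 8.99e-07) in FOXA2-negative cells, an interaction of 2.42 ± 0.35 (95% interval 1.69 to 3.16, edgeR adjusted p = 0.00671). The difference of group means in CPM was 164 in FOXA2-positive cells and 89.0 in FOXA2-negative cells. It was thus also larger in FOXA2-positive cells on this scale, on which no test was run. The antisense gene Tbx3os1 overlaps the start of Tbx3, the protocol named does not mark strand, and reads of the overlap cannot be told apart. Tbx3os1 was itself at 36.0, 19.12 and 9.27 CPM in BMP4 FOXA2-positive libraries, 0 in LDN FOXA2-positive libraries, 9.77, 16.2 and 8.81 CPM in BMP4 FOXA2-negative libraries and 0.416, 0.0970 and 0.289 CPM in LDN FOXA2-negative libraries (interaction adjusted p = 0.727, edgeR).

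Tfap2c (ENSMUSG00000028640, chr2:172549593-172558622, plus strand) encodes an AP-2 transcription factor of surface ectoderm, trophectoderm and germ cells. It stood at 21.6, 26.3 and 17.2 CPM after BMP4, against 7.22 and 5.62 CPM after LDN in FOXA2-positive cells. The other fraction held 50.3, 56.3 and 62.5 CPM after BMP4, against 65.4, 78.8 and 99.6 CPM after LDN in FOXA2-negative cells. In FOXA2-positive cells all BMP4 libraries were above all LDN libraries, and in FOXA2-negative cells all were below. Tfap2c rose by 1.75 ± 0.29 (log2, adjusted p = 0.00335) in FOXA2-positive cells, and in FOXA2-negative cells the log2 fold change was -0.53 ± 0.23 (adjusted p = 0.687). The interaction was 2.28 ± 0.37 (95% interval 1.51 to 3.04, edgeR adjusted p = 0.0171). This call was lost without any 1 of 6 libraries, at an adjusted p of 0.0532 to 0.117, the highest without LDN FOXA2-negative library 3. Under limma-voom Msx2 (adjusted p = 0.678), Tbx3 (0.877) and Tfap2c (0.678) did not pass.

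**Figure D2:**
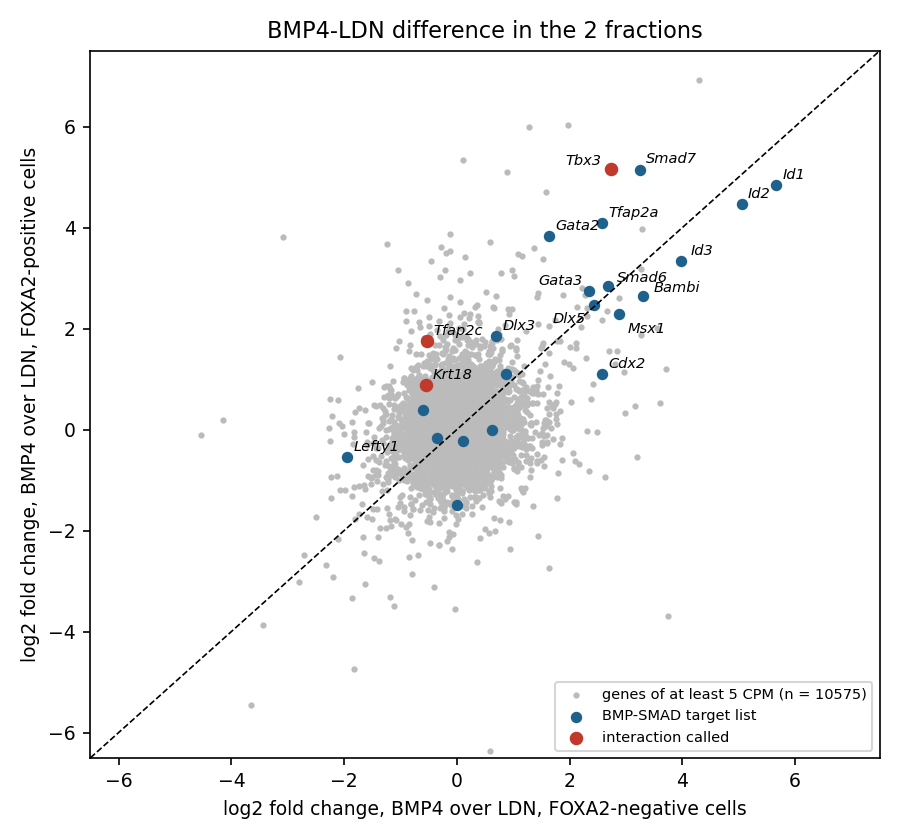
Response to BMP4 over LDN (log2 fold change) in FOXA2-positive cells against that in FOXA2-negative cells for 10575 genes (mean 5 CPM or more, no group at 0), with 22 BMP-SMAD targets and the called genes Tbx3, Krt18 and Tfap2c marked. Tbx3 lies far from the diagonal with both responses positive, while Krt18 and Tfap2c are positive in FOXA2-positive cells alone.

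The same 4 genes can be read as a gap between fractions under each treatment. They were picked for their interaction, which is made of these gaps, so the gaps and their p-values are descriptions. With LDN, Msx2 had 0 counts in FOXA2-positive cells, and the log2 fold change of FOXA2-positive over FOXA2-negative cells was -0.83 for Krt18, -1.74 for Tbx3 and -3.65 for Tfap2c (edgeR adjusted p = 0.00644, 0.00252 and 1.75e-06 in that order). All 4 were thus lower in FOXA2-positive cells under LDN. With BMP4 the same gap was -0.03 for Msx2 (adjusted p = 0.994), 0.59 for Krt18 (0.0292), 0.69 for Tbx3 (0.152) and -1.38 for Tfap2c (0.00454). Under BMP4 only Krt18 (higher in FOXA2-positive cells) and Tfap2c (lower) still passed among the 4, and Tfap2c was the one of the 4 with a called gap of the same sign under both treatments.

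The BMP-SMAD target list holds 30 genes, all tested, and its median response was close in the fractions. In FOXA2-positive cells 15 of the 30 were called higher after BMP4 and none lower, against a background of 0.274% of genes called higher, and in FOXA2-negative cells 12 were called higher and none lower, against 0.161%. The median log2 fold change was 2.56 in FOXA2-positive cells and 2.58 in FOXA2-negative cells. For the interaction 3 of the 30 were called (Msx2, Tbx3 and Tfap2c), 12 had an unadjusted edgeR p under 0.05 (9 of them positive), 18 were positive and 12 negative, and the median was 0.22. Over all genes tested 0.0297% were called, 6.21% had an unadjusted p under 0.05 and 3.8% had one and were positive. Of these interactions over all genes 8731 were positive and 8077 negative. Lists were chosen with earlier results of these data known, so counts over their members are descriptions. Of the 22 targets that averaged 5 CPM or more and had no group at 0, the 95% interval of the interaction included 0 for 14, lay above 0 for 6 and lay below 0 for 2.

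**Figure D3:**
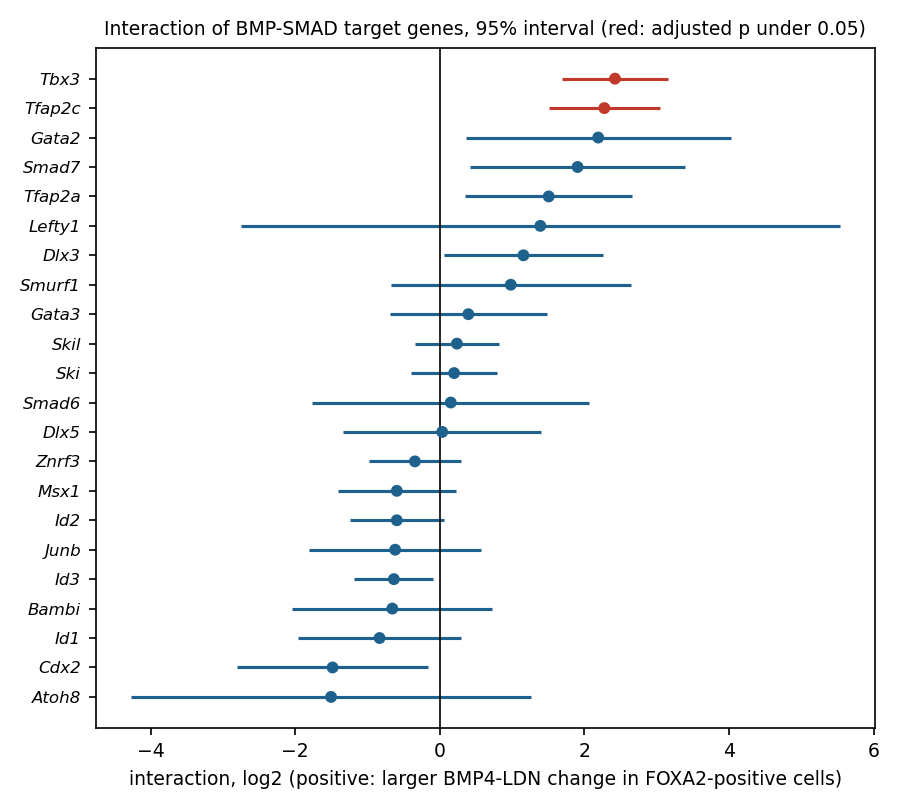
Interaction (log2, point) with its 95% interval (line) for the 22 BMP-SMAD targets that averaged 5 CPM or more and had no group at 0. The intervals of 14 include 0; Tbx3 and Tfap2c are among the 6 above 0, and Id3 and Cdx2 are the 2 below.

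The Id genes encode dominant-negative helix-loop-helix proteins and are standard readouts of BMP signalling. Id1 stood at 236, 236 and 273 CPM after BMP4, against 14.0 and 2.99 CPM after LDN in FOXA2-positive cells, and at 281, 242 and 242 CPM after BMP4, against 6.66, 3.98 and 4.44 CPM after LDN in FOXA2-negative cells. LDN FOXA2-positive library 2 was the highest of the 5 LDN libraries. The interaction of Id1 was -0.83 ± 0.52 (95% interval -1.96 to 0.30, edgeR adjusted p = 0.864), and without that library it was 0.70. Id2 stood at 142, 122 and 141 CPM after BMP4, against 6.28 and 5.98 CPM after LDN in FOXA2-positive cells. In FOXA2-negative cells the Id2 levels were 148, 146 and 120.2 CPM after BMP4, against 3.23, 3.59 and 5.595 CPM after LDN in FOXA2-negative cells. The BMP4 levels overlapped between fractions and the LDN levels were somewhat higher in FOXA2-positive cells, with an interaction of -0.59 ± 0.31 (95% interval -1.25 to 0.06). Id3 stood at 546, 443 and 555 CPM after BMP4, against 49.4 and 52.7 CPM after LDN in FOXA2-positive cells, and at 431, 272 and 421 CPM after BMP4, against 29.8, 21.7 and 20.4 CPM after LDN in FOXA2-negative cells. Its interaction was -0.63 ± 0.26 (edgeR adjusted p = 0.778), a smaller fold in FOXA2-positive cells even though the CPM difference was larger there (464 CPM, against 351 CPM in FOXA2-negative cells). In CPM the BMP4 minus LDN difference of Id1 was 239.8 in FOXA2-positive cells and 250.2 in FOXA2-negative cells, and that of Id2 129 and 134 in the same order. The intervals of Id1 and Id2 both include 0, so a smaller, an equal or a somewhat larger fold in FOXA2-positive cells lies within them.

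Msx1, the homeobox paralogue of Msx2, had an interaction of the opposite sign that did not pass. It stood at 1036, 775 and 887 CPM after BMP4, against 160.0 and 209 CPM after LDN in FOXA2-positive cells, and at 604, 408 and 925 CPM after BMP4, against 83.2, 112 and 67.4 CPM after LDN in FOXA2-negative cells. Both fractions responded without overlap, by 2.29 ± 0.31 in FOXA2-positive cells and 2.88 ± 0.27 in FOXA2-negative cells (log2), with an interaction of -0.59 ± 0.38 (95% interval -1.41 to 0.23, edgeR adjusted p = 0.869). Dlx5 (interaction 0.03 ± 0.66) and Gata3 (0.40 ± 0.52), transcription factors of the non-neural ectoderm border, had point estimates nearer 0, though the Dlx5 interval ran from -1.34 to 1.41. Gata2 (2.19 ± 0.85), Dlx3 (1.16 ± 0.53) and Tfap2a (1.51 ± 0.54) pointed the way Tfap2c did but did not pass after adjustment (edgeR adjusted p = 0.773, 0.802 and 0.773 in that order). Tfap2a stood at 128, 74.9 and 59.3 CPM after BMP4, against 2.16 and 8.37 CPM after LDN in FOXA2-positive cells, and at 155, 160.3 and 172 CPM after BMP4, against 20.3, 34.1 and 27.1 CPM after LDN in FOXA2-negative cells. Its LDN libraries did not overlap between fractions, being lower in FOXA2-positive cells. Cdx2, a caudal homeobox gene, pointed the other way (-1.48 ± 0.63, edgeR adjusted p = 0.785): it stood at 41.3, 29.8 and 47.0 CPM after BMP4, against 17.4 and 19.4 CPM after LDN in FOXA2-positive cells, and at 60.2, 10.3 and 45.9 CPM after BMP4, against 4.99, 7.76 and 6.66 CPM after LDN in FOXA2-negative cells.

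Promoter sequence is shown for Msx1, a target that responded in both fractions and had no called interaction, beside that of Krt18 above (RefSeq, GRCm38.p6). The stretch is chr5:37824586-37824835, minus strand, the whole 250 bases before the start, and held none of the 3 motifs. Of the other matched genes, Id2, with no called interaction, held GGCGCC in its 250 bases. That Id2 window lies inside the annotated gene (chr12:25093799-25097140, minus strand), with 89 bases ahead of an annotated exon. The Id2 match is therefore not upstream of the annotated gene. Msx2, whose interaction was called, held none of the 3 motifs in its own 250 bases, nor did Id3, Krt8 and Tfap2a in theirs. For Msx2 and Id3 that window opens inside an annotated exon, with 0 bases ahead of it. Krt8 had 110 bases ahead of an annotated exon, and the Tfap2a windows lie inside the annotated gene (chr13:40715302-40738376, minus strand). A lack of matches in such windows does not describe the sequence upstream of these genes.
Msx1: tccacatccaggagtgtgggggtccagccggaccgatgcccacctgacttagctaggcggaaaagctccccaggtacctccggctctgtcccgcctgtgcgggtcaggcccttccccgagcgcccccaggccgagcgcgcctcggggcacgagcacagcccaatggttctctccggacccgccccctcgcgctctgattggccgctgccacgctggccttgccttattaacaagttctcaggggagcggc

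Feedback inhibitors are induced by BMP signalling and then damp it, and of these Smad7 and Bambi were called higher after BMP4 in both fractions. Smad7, an inhibitory SMAD, stood at 32.7, 51.1 and 29.6 CPM after BMP4, against 1.78 and 0.239 CPM after LDN in FOXA2-positive cells, and at 21.3, 33.3 and 27.7 CPM after BMP4, against 2.08, 2.43 and 4.15 CPM after LDN in FOXA2-negative cells. It rose by 5.15 ± 0.62 in FOXA2-positive cells and 3.24 ± 0.46 in FOXA2-negative cells (log2; adjusted p = 0.000118 and 0.000951, and 0.0703 and 0.0612 under limma-voom, which did not pass), and the interaction of 1.91 ± 0.71 did not pass (edgeR adjusted p = 0.773). The interaction was 0.15 ± 0.92 for Smad6, another inhibitory SMAD, and -0.66 ± 0.66 for the pseudoreceptor gene Bambi, with 95% intervals of -1.77 to 2.07 and -2.04 to 0.73. Under limma-voom the Bambi call in FOXA2-negative cells was lost (adjusted p = 0.179). Nog encodes noggin, a secreted protein that binds BMPs, and stood at 22.5, 17.7 and 15.9 CPM after BMP4, against 0 CPM after LDN in FOXA2-positive cells. In FOXA2-negative cells Nog was at 6.39, 6.96 and 11.2 CPM after BMP4, against 1.56, 0 and 1.83 CPM after LDN in FOXA2-negative cells. As with Msx2, the libraries at 0 were those of LDN FOXA2-positive cells, together with 1 LDN FOXA2-negative library. The response was at least 119-fold in FOXA2-positive cells, against 7.44-fold in FOXA2-negative cells (log2 2.84 ± 0.79, edgeR adjusted p = 0.248, not called). At the floor of 3 counts in all the responses differed 16.0-fold, which is no bound (edgeR adjusted p of the interaction = 0.373, not called). Epha2, an ephrin receptor gene on the same list, was at 4.88, 5.61 and 4.34 CPM in BMP4 FOXA2-positive libraries, 0 in LDN FOXA2-positive libraries, 2.91, 3.10 and 4.31 CPM in BMP4 FOXA2-negative libraries and 4.99, 1.36 and 4.73 CPM in LDN FOXA2-negative libraries (adjusted p = 0.324, edgeR).

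In the main edgeR fit no interaction was called among the BMP ligand, receptor, SMAD and antagonist genes, against 0.0297% of all genes, so that lists of this length would hold few calls or none at that share. Over all genes tested 6.21% had an unadjusted edgeR p under 0.05. Of the 12 BMP ligand genes 6 were tested, with 1 unadjusted edgeR p under 0.05: Bmp7, at 8.73, 4.26 and 10.04 CPM after BMP4, against 20.4 and 31.4 CPM after LDN in FOXA2-positive cells, and at 8.14, 14.0 and 10.8 CPM after BMP4, against 12.4, 18.1 and 8.10 CPM after LDN in FOXA2-negative cells (interaction -1.52 ± 0.65, edgeR adjusted p = 0.781). The FOXA2-negative groups of Bmp7 overlapped and the FOXA2-positive groups did not. Of the 13 receptor and SMAD genes matched, 12 were tested and none had an unadjusted p under 0.05 (median interaction 0.07). Examples are the type I receptor gene Bmpr1a (-0.20 ± 0.38), the type II receptor gene Bmpr2 (0.07 ± 0.41), and Smad1 (-0.52 ± 0.38), Smad5 (0.26 ± 0.51) and Smad4 (0.20 ± 0.40), which carry the signal. Of 18 BMP antagonist genes 15 were tested, with 3 unadjusted p under 0.05: Nog, Bmper and Gpc3. Gpc3, which encodes the heparan sulphate proteoglycan glypican 3, stood at 353, 416 and 284 CPM after BMP4, against 281 and 414 CPM after LDN in FOXA2-positive cells, and at 119, 137 and 155 CPM after BMP4, against 70.6, 65.6 and 53.7 CPM after LDN in FOXA2-negative cells. It was called higher after BMP4 in FOXA2-negative cells and not in FOXA2-positive cells (log2 1.12 ± 0.17 in FOXA2-negative cells, adjusted p = 0.00214, and 0.01 ± 0.19 in FOXA2-positive cells, where the groups overlapped), with an interaction of -1.10 ± 0.25 (95% interval -1.63 to -0.57, edgeR adjusted p = 0.324). The Gpc3 interaction passed under DESeq2 (adjusted p = 0.0420) and with no filter on low counts (0.00300), and that of Nog with no filter (0.00528) and without LDN FOXA2-negative library 2 (0.0370).

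Surface ectoderm genes leaned to a positive interaction. Of 16 members 15 were tested (Trp63, the defining gene of stratified epithelium, was at 0 except in 1 LDN FOXA2-negative library), 11 were positive, 2 were called (Krt18 and Tfap2c), and 8 had an unadjusted edgeR p under 0.05, all 8 positive, against 3.8% of all genes. The median interaction was 1.16, against 0.03 over all genes. This list was chosen with earlier results of these data known, so its counts are descriptions and no independent support. The 8 were the keratin genes Krt7, Krt8, Krt18 and Krt19, the AP-2 genes Tfap2a and Tfap2c, Dlx3 and Wnt6. Of these, Tfap2a, Tfap2c and Dlx3 are also on the BMP-SMAD target list, as are the members Dlx5 and Gata3, so the lists overlap. Krt8, the partner of Krt18, stood at 109.9, 65.7 and 67.5 CPM after BMP4, against 47.6 and 66.7 CPM after LDN in FOXA2-positive cells, and at 92.6, 64.3 and 49.7 CPM after BMP4, against 147, 154 and 175 CPM after LDN in FOXA2-negative cells. In FOXA2-negative cells Krt8 fell after BMP4 (log2 -1.20 ± 0.23, adjusted p = 0.0229), while in FOXA2-positive cells the groups overlapped (0.50 ± 0.26), and the interaction of 1.71 ± 0.35 (95% interval 0.98 to 2.44) missed the threshold (edgeR adjusted p = 0.152). It passed under DESeq2 (adjusted p = 0.0131), with no filter on low counts (9.4e-06), with a replicate block within each treatment (0.00474) and without BMP4 FOXA2-negative library 1 (0.0456). Krt8 has an annotated pseudogene copy, and how reads shared with it were assigned is not given in the sources used here. Krt19 (1.255 ± 0.54, edgeR adjusted p = 0.785) reached its highest levels in BMP4 FOXA2-positive libraries, at 46.1, 43.2 and 84.2 CPM, against 5.81 and 12.1 CPM in LDN FOXA2-positive libraries; FOXA2-negative cells held 24.4, 15.4 and 16.6 CPM after BMP4 and 5.41, 5.82 and 9.45 CPM after LDN. Krt7 (1.34 ± 0.56, edgeR adjusted p = 0.778) differed instead on the FOXA2-negative side, at 9.77, 13.9 and 8.25 CPM after BMP4 and 30.8, 33.3 and 32.4 CPM after LDN. Wnt6, an ectodermal Wnt ligand gene, had an interaction of 2.23 ± 0.58 (edgeR adjusted p = 0.426).

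**Figure D4:**
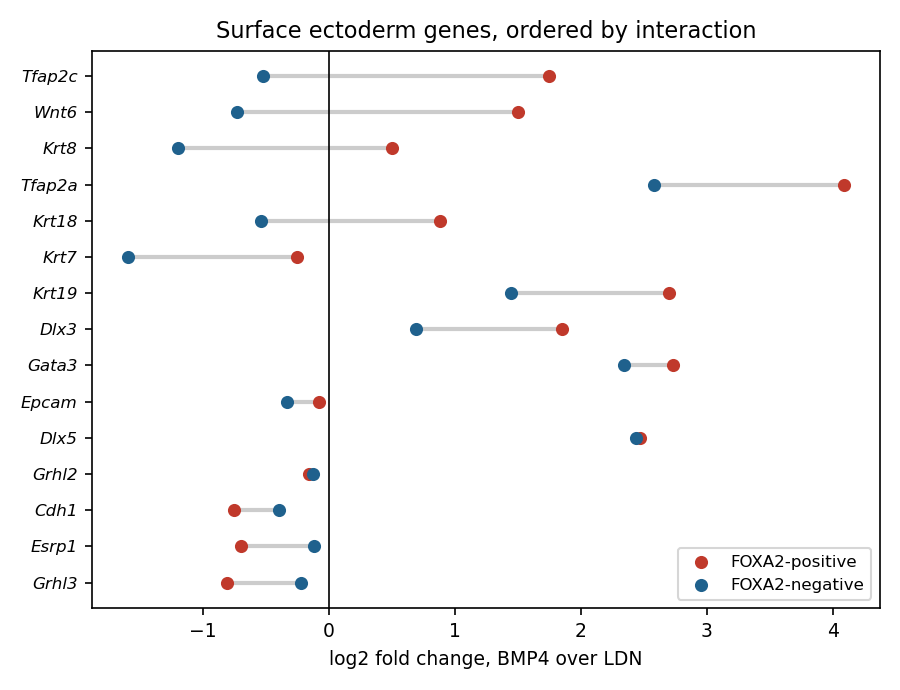
Log2 fold change of BMP4 over LDN in FOXA2-positive cells and in FOXA2-negative cells for the 15 surface ectoderm genes tested. Krt18, Tfap2c, Krt8 and Wnt6 lie above 0 in FOXA2-positive cells and below 0 in FOXA2-negative cells, while Cdh1 and Esrp1 lie below 0 in both.

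For general epithelial members of that list the interaction was -0.36 ± 0.25 for Cdh1 (E-cadherin), 0.26 ± 0.20 for Epcam, -0.03 ± 0.77 for Grhl2 and -0.58 ± 0.55 for the splicing factor gene Esrp1. The summed level of the 16 members was 767 to 906 CPM in BMP4 FOXA2-positive libraries, 486 to 578 CPM in LDN FOXA2-positive libraries, 928 to 944 CPM in BMP4 FOXA2-negative libraries and 952 to 1110.4 CPM in LDN FOXA2-negative libraries. LDN FOXA2-positive libraries were thus the lowest of the 4 groups without overlap. Trophectoderm genes gave 11 positive of 13 tested, with 1 called (Tfap2c), 6 at an unadjusted edgeR p under 0.05 (5 positive) and a median of 1.41. Tfap2c, Gata3, Krt7, Cdx2, Hand1, Eomes, Sparc, Lama1 and Bmp8b of this list are also on other lists. Over all genes 0.0297% were called, 6.21% had an unadjusted p under 0.05 and 3.8% had one and were positive. Elf5, a defining trophectoderm gene, was not tested, with at most 0.375 CPM in any library.

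Residual pluripotency transcripts are given beside these results: Pou5f1 and Nanog differed between the fractions, and the summed level of the list overlapped between them under both treatments. All 18 members were tested, 14 with a positive interaction (median 0.54), 1 called (Tbx3) and 4 at an unadjusted edgeR p under 0.05 (3 positive). Over all genes 0.0297% were called, 6.21% had an unadjusted p under 0.05 and 3.8% had one and were positive. Pou5f1, which encodes OCT4, stood at 14.0, 10.7 and 14.96 CPM after BMP4, against 11.6 and 6.46 CPM after LDN in FOXA2-positive cells, and at 39.9, 62.2 and 53.9 CPM after BMP4, against 58.2, 54.1 and 78.2 CPM after LDN in FOXA2-negative cells. It was lower in FOXA2-positive than in FOXA2-negative cells under both treatments, and its interaction was 0.83 ± 0.41 (95% interval -0.03 to 1.69). Nanog was at 0.470, 0 and 2.51 CPM in BMP4 FOXA2-positive libraries, 0 in LDN FOXA2-positive libraries, 9.65, 34.9 and 19.97 CPM in BMP4 FOXA2-negative libraries and 10.2, 5.14 and 12.1 CPM in LDN FOXA2-negative libraries. The summed level of the 18 members was 2357 to 3109 CPM in BMP4 FOXA2-positive libraries, 2030.1 to 2392 CPM in LDN FOXA2-positive libraries, 2826 to 4359.9 CPM in BMP4 FOXA2-negative libraries and 1992 to 2802 CPM in LDN FOXA2-negative libraries, most of it from Sall4. Markers of the 2-cell-like state summed to 0 to 1.45 CPM in BMP4 FOXA2-positive libraries, 0 to 0.120 CPM in LDN FOXA2-positive libraries, 101 to 254 CPM in BMP4 FOXA2-negative libraries and 7.43 to 118 CPM in LDN FOXA2-negative libraries; Zscan4c among them was at 0 in all FOXA2-positive libraries. The part of these transcripts in the called interactions was not tested. Klf5, a Kruppel-like factor gene of pluripotent and epithelial cells, stood at 45.4, 36.4 and 43.2 CPM after BMP4, against 19.6 and 14.6 CPM after LDN in FOXA2-positive cells, and at 27.0, 34.5 and 25.3 CPM after BMP4, against 49.8, 31.6 and 32.0 CPM after LDN in FOXA2-negative cells (interaction 1.67 ± 0.40, edgeR adjusted p = 0.324).

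Of 15 neural progenitor genes tested, none had an interaction with an unadjusted edgeR p under 0.05, against 6.21% of all genes, a share at which a list of this length would hold few or none. Sox1, Sox2 and Sox3, the SOXB1 factors that maintain neural progenitors, were called lower after BMP4 in FOXA2-positive cells, and Sox1 and Sox2 in FOXA2-negative cells. In FOXA2-positive cells the Sox1 call (adjusted p = 0.0351) was lost in 10 of 18 alternatives, at an adjusted p of up to 0.199: under limma-voom, with all 17 libraries, with the replicate block, and without any 1 FOXA2-positive library or LDN FOXA2-negative library 2 or 3. That of Sox3 (0.0334) was lost in 4 of 19, at up to 0.198: without BMP4 FOXA2-positive library 2 or 3 or either LDN FOXA2-positive library. Sox2 stood at 56.7, 65.1 and 62.2 CPM after BMP4, against 113 and 121 CPM after LDN in FOXA2-positive cells, and at 63.5, 55.0 and 45.5 CPM after BMP4, against 109.7, 98.8 and 88.5 CPM after LDN in FOXA2-negative cells. In both fractions every BMP4 library was below every LDN library, by -0.93 ± 0.19 in FOXA2-positive cells and -0.86 ± 0.17 in FOXA2-negative cells (log2; adjusted p = 0.0246 and 0.0363), and the 95% interval of the interaction, -0.62 to 0.46, bounds a difference between them. Sox1 fell by 1.74 ± 0.37 (log2) in FOXA2-positive cells and fell by 2.49 ± 0.35 in FOXA2-negative cells (interaction 0.76 ± 0.51, 95% interval -0.30 to 1.81). Summed over the 16 members, levels were 509.7 to 711 CPM in BMP4 FOXA2-positive libraries, 1112 to 1199.8 CPM in LDN FOXA2-positive libraries, 425 to 557 CPM in BMP4 FOXA2-negative libraries and 717 to 821 CPM in LDN FOXA2-negative libraries. Floor plate genes (10 of 15 tested) gave no interaction with an unadjusted p under 0.05 and no call in either fraction. Over all genes 6.21% had such an interaction, and 0.428% were called in FOXA2-positive cells and 0.274% in FOXA2-negative cells. They summed to 104 to 135 CPM in BMP4 FOXA2-positive libraries, 157 to 184 CPM in LDN FOXA2-positive libraries, 44.1 to 79.4 CPM in BMP4 FOXA2-negative libraries and 83.6 to 106 CPM in LDN FOXA2-negative libraries. Pax3, the dorsal neural tube gene, rose after BMP4 to 11.98, 7.81 and 18.0 CPM in FOXA2-negative cells, against 2.29, 2.62 and 1.45 CPM after LDN (adjusted p = 0.0181); it was at 32.9, 22.7 and 29.9 CPM after BMP4 and 3.66 and 9.09 CPM after LDN in FOXA2-positive cells (adjusted p = 0.0947), with an interaction of -0.40 ± 0.67.

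In the dorsal neural tube and germline lists the called interactions were those of Msx2 and Tfap2c. The neuron, neural crest, endoderm, notochord, mesoderm, 2-cell-like, Hedgehog, Notch, Wnt, FGF, retinoic acid, Hox, cadherin, Eph, basement membrane, p53, stress, cell cycle and mitochondrial lists held no interaction called in the main edgeR fit, at a share of 0.0297% over all genes. DESeq2 called Epha2 of the Eph list (adjusted p = 0.0134), Gadd45g of the p53 list (0.00385) and Trib3 of the stress list (0.00719). Lef1, a transcription factor gene of the Wnt pathway and itself a Wnt target, had the smallest p among the Wnt targets: it stood at 54.1, 39.7 and 56.5 CPM after BMP4, against 7.503 and 11.6 CPM after LDN in FOXA2-positive cells, and at 40.3, 43.7 and 45.8 CPM after BMP4, against 19.5, 31.1 and 19.1003 CPM after LDN in FOXA2-negative cells (interaction 1.496 ± 0.41, edgeR adjusted p = 0.542). Lef1 was called higher after BMP4 in FOXA2-positive cells (log2 2.40 ± 0.33, adjusted p = 0.000510) and not in FOXA2-negative cells (0.90 ± 0.27, adjusted p = 0.323). Notch receptor genes pointed in different directions, with an interaction of 1.32 ± 0.49 for Notch1 and -0.41 ± 0.17 for Notch2 (edgeR adjusted p = 0.773 and 0.778). Gli1, a direct readout of Hedgehog signalling, was at 15.4, 27.1 and 16.4 CPM after BMP4, against 33.1 and 18.4 CPM after LDN in FOXA2-positive cells, and at 24.6, 21.3 and 12.5 CPM after BMP4, against 4.89, 6.60 and 13.5 CPM after LDN in FOXA2-negative cells (interaction -1.61 ± 0.62, edgeR adjusted p = 0.773). Hoxb1, a hindbrain Hox gene, was called higher after BMP4 in FOXA2-positive cells (log2 0.92 ± 0.19, adjusted p = 0.0245), with an interaction of 0.60 ± 0.24. None of 18 cell cycle genes and none of 9 mitochondrially encoded genes tested had an unadjusted p under 0.05, against 6.21% of all genes. At that share lists of this length would hold few or none.

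Beyond the 5 called genes, the positive interactions of smallest p among named genes averaging 5 CPM or more were Urgcp (adjusted p = 0.0799), Gadd45g (0.0868), Bex1 (0.0868), Trib3 (0.138), Krt8, Hexdc (0.225), Tex19.1 (0.314), Ctnnbl1, Klf5 and Slc2a3 (each 0.324; edgeR). DESeq2 called each of these but Klf5. Bex1, a small adaptor protein gene of neural cells, was the most abundant of those above the 0.05 threshold but under 0.1: it stood at 491, 506 and 433 CPM after BMP4, against 267 and 217 CPM after LDN in FOXA2-positive cells, and at 385, 326 and 316 CPM after BMP4, against 356, 349 and 330.0 CPM after LDN in FOXA2-negative cells. Its FOXA2-positive groups were far apart and its FOXA2-negative groups overlapped (interaction 0.99 ± 0.19, 95% interval 0.60 to 1.39). Gadd45g, a stress-inducible growth arrest gene, stood at 18.7, 11.4 and 8.30 CPM after BMP4, against 3.47 and 4.18 CPM after LDN in FOXA2-positive cells, and at 49.997, 39.9 and 38.6 CPM after BMP4, against 56.1, 66.3 and 138 CPM after LDN in FOXA2-negative cells, with LDN FOXA2-negative library 3 well above the others. Trib3, a pseudokinase gene induced by stress, was at 0 in both LDN FOXA2-positive libraries and at 10.05, 3.85 and 7.72 CPM after BMP4 in the same fraction, against 1.98, 6.31 and 18.1 CPM after BMP4 and 12.9, 3.49 and 10.997 CPM after LDN in FOXA2-negative cells. Slc2a3, a glucose transporter gene, was called lower after BMP4 in FOXA2-negative cells (log2 -0.81 ± 0.12, adjusted p = 0.00151) and was at -0.05 ± 0.13 in FOXA2-positive cells, whereas its relative Slc2a1 fell in both fractions (-1.58 ± 0.14 in FOXA2-positive cells and -1.42 ± 0.13 in FOXA2-negative cells; interaction -0.16 ± 0.19, 95% interval -0.55 to 0.23).

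No negative interaction was called in the main edgeR fit or by limma-voom, against 5 by DESeq2 and 17 by edgeR with no filter on low counts. In the main fit 406 genes (2.42%) had a negative interaction at an unadjusted edgeR p under 0.05. The 15 of smallest p were Prune2, Add3, Frat1, Gpc3, Lima1, Cryz, Chchd5, Smpd3, Plekhg1, Dzip1, Pycr1, Lrrc28, Zer1, Cenpb and Psmb10, at an adjusted edgeR p of 0.314 to 0.586. Of these, DESeq2 called Add3 (adjusted p = 0.0260), Prune2 (0.0296), Gpc3 (0.0420) and Frat1 (0.0492). With no filter on low counts edgeR called the same genes and also Lima1 and Cryz (adjusted p = 0.000886 to 0.0376). Prune2 stood at 42.2, 40.9 and 32.8 CPM after BMP4, against 95.8 and 112 CPM after LDN in FOXA2-positive cells, and at 105, 109 and 133 CPM after BMP4, against 162, 138 and 113 CPM after LDN in FOXA2-negative cells. It fell after BMP4 in FOXA2-positive cells (log2 -1.42 ± 0.19, adjusted p = 0.000466) and its FOXA2-negative groups overlapped (interaction -1.17 ± 0.26, 95% interval -1.72 to -0.62). Frat1, which encodes a GSK3-binding activator of Wnt signalling, stood at 69.1, 81.5 and 48.8 CPM after BMP4, against 205 and 200.1 CPM after LDN in FOXA2-positive cells, and at 65.7, 49.8 and 92.8 CPM after BMP4, against 76.9, 91.8 and 74.3 CPM after LDN in FOXA2-negative cells. It was called lower after BMP4 in FOXA2-positive cells (-1.61 ± 0.23, adjusted p = 0.000949), with an interaction of -1.39 ± 0.32. Add3, the gene of the membrane skeleton protein gamma-adducin, stood at 52.7, 43.1 and 40.6 CPM after BMP4, against 88.7 and 98.3 CPM after LDN in FOXA2-positive cells, and at 49.8, 50.4 and 37.6 CPM after BMP4, against 42.5, 33.9 and 34.6 CPM after LDN in FOXA2-negative cells (interaction -1.35 ± 0.30).

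**Figure D5:**
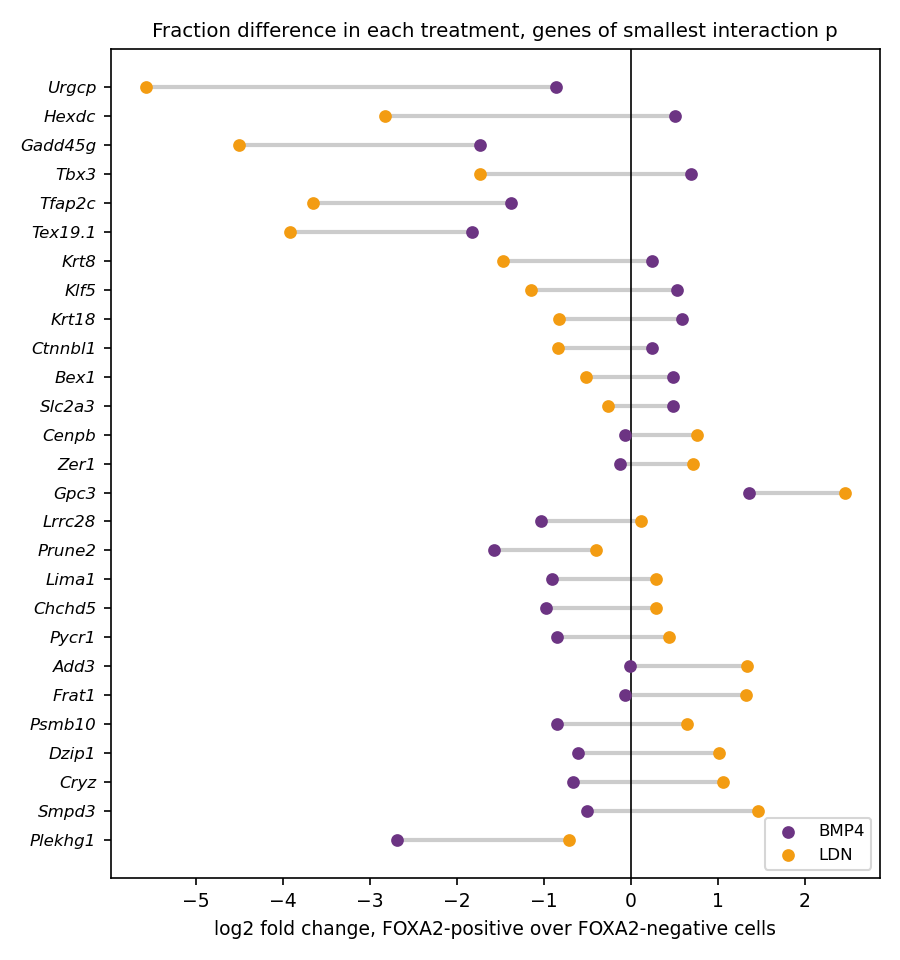
Log2 fold change of FOXA2-positive over FOXA2-negative cells under BMP4 and under LDN for 27 genes: 12 of the positive and 15 of the negative interactions of smallest p, none with a group at 0. All 12 drawn with a positive interaction were lower in FOXA2-positive cells under LDN, and 13 of the 15 with a negative interaction were higher.

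An interaction is also the gap between fractions under BMP4 minus that under LDN, and the gaps of these genes, chosen for their interaction, can only be described. Of 12 positive genes with no group at 0, all 12 were lower in FOXA2-positive cells under LDN, 9 of them called. Of the 15 negative genes 13 were higher in FOXA2-positive cells under LDN. Plekhg1 and Prune2 were the exceptions, at -0.71 and -0.41. Gaps between fractions also ran along whole chromosomes: the median log2 gap of genes averaging 20 CPM or more was 0.33 under BMP4 and 0.24 under LDN on chromosome 6 (330 genes), and -0.30 and -0.27 in the same order on chromosome 8 (406 genes), against -0.05 to 0.08 on the other autosomes and the X chromosome. The median interaction was 0.09 on chromosome 6 and -0.06 on chromosome 8, and without the genes of these chromosomes and of Y the same 5 interactions were called. Msx2, Krt18, Tbx3 and Tfap2c lie on other chromosomes, so leaving these genes out could hardly change their calls. Whether the gaps of whole chromosomes bear on genes elsewhere was not tested.

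The fractions' own responses shared 24 called genes, 16 higher and 8 lower after BMP4, which is 33.3% of the FOXA2-positive calls and 52.2% of the FOXA2-negative calls. None was called higher in one fraction and lower in the other. The shared genes included Coch, which encodes the extracellular matrix protein cochlin (3.17 ± 0.49 in FOXA2-positive cells and 3.27 ± 0.40 in FOXA2-negative cells), the Notch coactivator gene Maml2 (-1.94 ± 0.26 and -1.36 ± 0.24, same order) and the imprinted gene Peg12 (-1.79 ± 0.19 and -1.19 ± 0.17). Called in FOXA2-positive cells alone were 48 genes, of which 36 had an interaction with an unadjusted edgeR p under 0.05 and 3 a called one. Called in FOXA2-negative cells alone were 22, of which 12 had an unadjusted p under 0.05 and none a called interaction. Genes called in one fraction and not in the other were picked for unlike responses, so these counts, against 6.21% of all genes, are descriptions alone. Prr15 was an example of the first kind: it stood at 2.54, 6.44 and 9.94 CPM after BMP4, against 83.0 and 42.6 CPM after LDN in FOXA2-positive cells, and at 5.46, 3.53 and 7.69 CPM after BMP4, against 11.7, 15.1 and 11.4 CPM after LDN in FOXA2-negative cells (interaction -2.13 ± 0.65, edgeR adjusted p = 0.631). Stra6, a retinol transporter gene, was of the second kind: it stood at 28.4, 18.9 and 29.3 CPM after BMP4, against 50.5 and 67.1 CPM after LDN in FOXA2-positive cells, and at 18.5, 10.3 and 23.0 CPM after BMP4, against 67.1, 82.6 and 67.3 CPM after LDN in FOXA2-negative cells. Its BMP4 libraries were below its LDN libraries in both fractions, by -1.20 ± 0.30 in FOXA2-positive cells (adjusted p = 0.101) and -2.07 ± 0.28 in FOXA2-negative cells (adjusted p = 0.000610), with an interaction of 0.87 ± 0.41 (edgeR adjusted p = 0.804).

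Across 6597 genes averaging 20 CPM or more the log2 fold changes of the fractions correlated at Pearson's r = 0.379 and Spearman's rho = 0.195, and across the 65 of them called in either fraction at r = 0.811 and rho = 0.800. Genes are not independent replicates and both fractions were scaled together, so these are descriptions. The size of difference that could be seen depended on level: the median SE of an interaction was 0.754 at 5 to 20 CPM (3979 genes), 0.382 at 20 to 100 CPM (4588 genes) and 0.223 above 100 CPM (2009 genes), with median 95% half-widths of 1.57, 0.797 and 0.464 (log2) in that order. These half-widths belong to single genes without adjustment, and an adjusted p under 0.05 asks for more.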

How the data were processed

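RNA of FOXA2-positive and FOXA2-negative cells was sequenced; the labels name SMART-Seq v2. The authors deposited unnormalised counts, 1 table a library, with 49671 genes and 5 summary lines each. Per the submitters' processing notes, HTSeq 0.11.2, UMI-tools 1.0.0, cutadapt 1.18 and DESeq2 1.26.0 were used with the build mm10. Aligner, annotation release and strand setting: not given in the sources used here. The summary lines, 49.3% to 54.0% of tallied reads, were left out of library totals and of every test. Symbols and coordinates came from GENCODE M21 (49412 genes matched).

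In R 4.3.3, edgeR 4.0.16 kept 16808 genes (filterByExpr, minimum count 10, minimum total 15), scaled the 11 libraries by TMM and fitted 1 robust quasi-likelihood model to 4 group means without a block (7 residual degrees of freedom, common biological coefficient of variation 0.621). Benjamini-Hochberg adjustment ran over all genes tested, with a threshold of 0.05. An SE is |log2 fold change| over the root of edgeR's F, and is approximate. For a group at 0, folds are bounds with that group set to 3 counts in all, which covers counting error only. A difference between the fractions' folds takes the other fold at its point estimate and is no bound. Alternatives were DESeq2 1.42.0, limma-voom (limma 3.58.1), RLE scaling, other filters, all 17 libraries in the fit, a replicate block, genes without chromosomes 6, 8 and Y (where fractions differed as a whole on 6 and 8), and each library left out.

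Named genes were those with a called interaction, the 15 positive and 15 negative interactions of smallest p (mean of at least 5 CPM, no predicted genes), the 10 largest called changes in each direction in each fraction without overlap of libraries, and members of 30 gene lists; 1 called gene is not reported here. Genes, lists and alternatives were chosen with earlier results of these data known. Whether replicate libraries are separate cultures is not said in the labels; if they are not, the p-values reflect technical spread alone.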

Additional observations from a re-analysis of the deposited data

Results flagged for a closer look

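The response to BMP4 over LDN differed between FOXA2-positive and FOXA2-negative cells by the interaction test for Msx2, Krt18, Tbx3 and Tfap2c (edgeR, Benjamini-Hochberg adjustment over all genes tested). The interaction was 1.42 for Krt18 (adjusted p = 0.00671), 2.42 for Tbx3 (0.00671) and 2.28 for Tfap2c (0.0171), each on the log2 scale and each larger in FOXA2-positive cells. For Msx2 the fitted value was 8.10 (adjusted p = 0.00437), which depends on how 0 counts in both LDN FOXA2-positive libraries are handled and is no bound. With that group set at a floor of 3 counts in all, the responses differed 21.8-fold, with the FOXA2-negative fold at its point estimate.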

How the results depend on the processing

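The number of called interactions, 5 in edgeR, was 34 under DESeq2 (29 positive, 5 negative), 62 with no filter on low counts (45 positive, 17 negative) and 1 under limma-voom (Krt18); the 34 and the 62 each held all 5. With each library left out in turn it lay between 3 and 9: 3 without BMP4 FOXA2-positive library 1 or BMP4 FOXA2-negative library 2, 8 without LDN FOXA2-negative library 2 or LDN FOXA2-positive library 3, and 9 without LDN FOXA2-positive library 2. Where an LDN FOXA2-positive library is left out, the other one stands alone and is assumed to vary as the other groups do. The 72 genes called in FOXA2-positive cells became 208 under DESeq2 and 240 with no filter, 59 under limma-voom (29 higher, 30 lower), and 52 to 81 with a library left out. The call of Prr15 in FOXA2-positive cells was lost with all 17 libraries and without LDN FOXA2-positive library 2, and that of Maml2 in FOXA2-negative cells with all 17 libraries and without BMP4 FOXA2-negative library 2 or 3 or LDN FOXA2-negative library 2. The 46 called in FOXA2-negative cells became 139 under DESeq2, 175 with no filter, and 27 to 48 with a library left out, the 27 without BMP4 FOXA2-negative library 3. The cause was not tested. Krt18 kept its call in all 20 alternatives (interaction 1.29 to 1.49), Msx2 and Tbx3 in all but limma-voom. The interaction of Id1 reversed to 0.70 without LDN FOXA2-positive library 2 and was -1.52 without library 3 of that group, the ends of its range with a library left out. Of all values recomputed, 1255 kept their direction and side of the threshold, 100 no longer passed, 36 newly passed and 1 reversed. With 2 or 3 libraries a group, low genes are limited most.

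Replicate numbers were not used to pair libraries in the main fit, though the titles give both fractions of a treatment the same number. Deviations from the group means of same-numbered libraries of a treatment correlated at 0.0663, 0.0721 and 0.0783 in BMP4 and at 0.0355 and 0.0733 in LDN (6597 genes). All were positive and under 0.1. Different-numbered libraries of a treatment correlated at -0.0567 to -0.011 in BMP4 and at -0.0733 to 0.0378 in LDN. In BMP4 all same-numbered values were above the different-numbered ones, so a weak pairing is not excluded. In LDN the deviations of the 2 FOXA2-positive libraries mirror each other, so the different-numbered values there are no separate baseline. With the replicate number as a block over the groups, 5 interactions, 57 genes in FOXA2-positive cells and 36 in FOXA2-negative cells were called. With the block within treatment, 10 interactions were called (9 positive, 1 negative). Those of Krt8, Gadd45g, Igf2 and Phlda2 were among the ones added (edgeR adjusted p = 0.00474 to 0.0453). The block within treatment could not be fitted for the responses of single fractions.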
